A study of Saccharomyces cerevisiae with 12 samples.

Results

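Gluconeogenesis and the glyoxylate cycle were followed through 8 genes of budding yeast, among 7127 features in the count table. The 8 were chosen by a list of systematic names and not by their values: FBP1 (YLR377C), PCK1 (YKR097W), ICL1 (YER065C), MLS1 (YNL117W), MDH2 (YOL126C), IDP2 (YLR174W), SFC1 (YJR095W) and CIT2 (YCR005C). All 8 passed the filter on low counts, as did 6085 features in all. By its title the series asks what phosphorylation of Rpd3, a histone deacetylase, does to gene expression in glucose and in sucrose. Total RNA of exponentially growing cells was sequenced in 12 libraries, 3 biological replicates in each of 4 groups. The groups were the wild type (WT) in YPD, a rich medium with glucose, the mutant Rpd3_2SA (2SA below) in glucose, WT in sucrose and 2SA in sucrose. All 12 libraries carry the strain label BY4741, an S288C derivative of mating type a, but what the 2SA change is, how it was made and from how many clones are not stated there.

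Glucose is broken down by glycolysis, and gluconeogenesis runs that pathway backwards to make sugar phosphates when cells live on ethanol, acetate, glycerol or lactate. Fructose-1,6-bisphosphatase (FBP1) and phosphoenolpyruvate carboxykinase (PCK1) catalyse the steps that glycolytic enzymes cannot reverse. The glyoxylate cycle bypasses the carbon-losing steps of the citric acid cycle, so that acetyl units can be turned into net C4 acids that feed gluconeogenesis. Yeast represses many of these genes strongly in glucose and degrades several of the enzymes when glucose returns. Cat8 and Sip4, zinc cluster activators, bind carbon source responsive elements (CSRE) in many of their promoters. Sucrose is cleaved outside the cell by invertase to glucose and fructose, and cells growing on it remain largely fermentative.

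Several of the 8 genes share activators, so their upstream sequences are shown first. In sacCer3 coordinates, FBP1 lies at chrXII:873746-874792 on the minus strand and PCK1 at chrXI:631152-632801 on the plus strand. ICL1 lies at chrV:285241-286914 (minus), MLS1 at chrXIV:406358-408022 (plus) and MDH2 at chrXV:81787-82920 (minus). IDP2 lies at chrXII:504591-505829 (plus), SFC1 at chrX:609773-610741 (plus) and CIT2 at chrIII:120946-122328 (minus). No annotated feature of the count table overlapped any of the 8 coding regions. The 600 bases before each start codon were read from the RefSeq R64 genome, the same assembly as sacCer3, and searched on both strands. The CSRE consensus was found upstream of 4 of the 8 genes and of 33 of 5999 yeast promoters (0.55%). The CSRE is known from promoters of such genes, so these shares are no independent test of enrichment.

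The 4 genes with the consensus are shown 5′ to 3′ on the gene's own strand, with 15 bases beside the outermost matches. Capitals mark the matched bases, 12 per match.
PCK1, chrXI:630655-630696, plus strand: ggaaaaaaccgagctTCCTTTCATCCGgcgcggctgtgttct
ICL1, chrV:287287-287328, minus strand: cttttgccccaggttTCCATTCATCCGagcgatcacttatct
MLS1, chrXIV:405812-405883, plus strand: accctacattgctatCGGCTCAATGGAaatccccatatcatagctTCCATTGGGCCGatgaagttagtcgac
MDH2, chrXV:83272-83368, minus strand: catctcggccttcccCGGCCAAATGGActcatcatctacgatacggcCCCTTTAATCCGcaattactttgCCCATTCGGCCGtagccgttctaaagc
PCK1 and ICL1 had 1 match each, 482 to 471 and 399 to 388 bases before the start codon. MLS1 had 2 matches and MDH2 had 3, all of them between 531 and 367 bases before the start codon. The 97 bases of MDH2 held more matches than the window of any other member, and MDH2 was the member with lower mean levels in sucrose.

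A looser form of the element was searched as CC, any 2 bases, T, any 3 bases and CCG. It was found upstream of 6 of the 8 genes, against 8.73% of all promoters, with the same limit as for the consensus. Every CSRE consensus match is also a match of this form. IDP2 had 1 match and SFC1 had 2, and these are the members that had the looser form alone. FBP1 and CIT2 had none.
IDP2, chrXII:504273-504313, plus strand: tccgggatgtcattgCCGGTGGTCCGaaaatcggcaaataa
SFC1, chrX:609178-609307, plus strand: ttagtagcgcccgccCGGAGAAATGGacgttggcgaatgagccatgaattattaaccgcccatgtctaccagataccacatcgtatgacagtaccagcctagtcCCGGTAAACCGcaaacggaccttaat
The repressor Mig1 binds G-rich boxes, and its core GNGGGG was found upstream of 2 of the 8 genes, FBP1 and IDP2, against 27.3% of all promoters. The FBP1 match lay 198 to 193 and the IDP2 match 206 to 201 bases before the start codon.
FBP1, chrXII:874970-875005, minus strand: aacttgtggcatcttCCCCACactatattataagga
IDP2, chrXII:504370-504405, plus strand: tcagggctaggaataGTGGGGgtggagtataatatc
A match describes letters and is not a binding site, and a missing match says only that these letters are absent from this window.

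CIT2, the peroxisomal citrate synthase, is the textbook target of the retrograde factors Rtg1 and Rtg3, which bind the R box GTCAC. Its window held 3 R boxes, marked in capitals here.
CIT2, chrIII:122505-122688, minus strand: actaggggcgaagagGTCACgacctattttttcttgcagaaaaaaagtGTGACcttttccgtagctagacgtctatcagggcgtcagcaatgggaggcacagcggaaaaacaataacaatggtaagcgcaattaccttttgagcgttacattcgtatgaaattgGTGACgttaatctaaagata
They lay 345 to 341, 312 to 308 and 196 to 192 bases before the start codon, and the first 2 of these lie inside the neighbouring feature YCR006C, which begins 201 bases away. R boxes are common: 5 of the 8 genes and 49.2% of all promoters had at least 1. The window of IDP2 runs into TAG1, 343 bases away, which holds its 3 R boxes, and that of FBP1 runs into a tRNA gene 583 bases away.

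**Figure D1:**
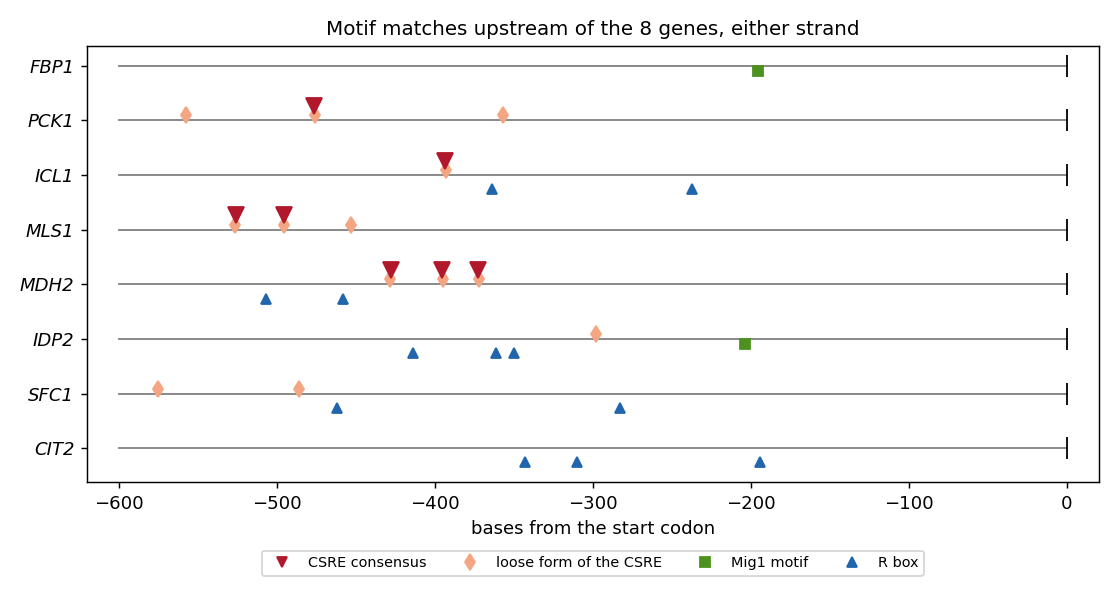
Motif matches in the 600 bases before the start codon of each gene, on either strand, with distance in bases on the horizontal axis and the start codon at 0. Red triangles mark the CSRE consensus, pale diamonds its looser form, green squares the Mig1 motif and blue triangles the R box. MDH2 shows 3 consensus matches, IDP2 and SFC1 show the looser form alone, and FBP1 and CIT2 show neither.

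Depth was similar across libraries, between 20775911 and 25360037 counts, so that 1 count was worth 0.0372 to 0.0486 CPM, the count as a share of the library total after scaling with TMM (trimmed mean of M values) factors. The lowest member counts were 47, for PCK1 and for SFC1 in 2SA glucose library 2. RPD3 had 90.7 to 136 CPM over the 12 libraries, and its count does not show which libraries carry the mutation. STE2, the receptor found on a cells, had 93.5 to 277 CPM, and STE3, its alpha-cell counterpart, at most 4.67 CPM. Of the other 3 alpha-cell genes listed, MF(ALPHA)1 had at most 0.297 CPM and MF(ALPHA)2 3.38 to 6.92 CPM, but SAG1 had 42.5 to 65.7 CPM in all 12 libraries. The deletions that BY4741 carries include those of LEU2, MET17 and URA3. LEU2 had at most 0.0486 CPM and MET17 had 0 counts in every library. URA3, however, had 233 to 521 CPM in all 12, of both genotypes, which a URA3 deletion alone would not give. The labels state no reason for this, and none was tested. HIS3, the other strain marker listed, had 29.8 to 69.1 CPM, and what this means for the label was not tested. The second sucrose libraries stood apart in both genotypes. Ribosomal protein genes took 4.09% of counts in WT sucrose library 2 and 5.85% in 2SA sucrose library 2, while the other 4 sucrose libraries gave 9.68% to 13.4% and the 6 glucose libraries 14.2% to 17.5%. The 12 stress markers took 1.40% and 0.759% there, against 0.177% to 0.492% in the other sucrose libraries. Without the libraries numbered 2, edgeR called 0 of 6092 genes in sucrose against glucose in either genotype. Every edgeR call of that comparison given below was thus lost there. Without those numbered 1 it called 2 of 6084 genes higher and 0 lower in WT, and 4 and 1 in 2SA. Both omissions leave fewer libraries per group, so the loss of calls does not by itself point to the libraries numbered 2.

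In glucose the 8 genes spanned a wide range of levels. Compared per length (CPM per kb of coding region), CIT2 was the highest in WT glucose, with 319 CPM per kb, at percentile 88.4 of the tested genes. MDH2, the cytosolic malate dehydrogenase, followed with 69.9 at percentile 59.0, above the median gene at 51.7. IDP2, the cytosolic isocitrate dehydrogenase that makes NADPH, had 16.7, and ICL1, isocitrate lyase, had 12.7. The other 4 were near the bottom of the tested genes, with 5.38 for FBP1, 4.28 for SFC1, 3.35 for MLS1 and 2.64 for PCK1, at percentiles 8.79 to 4.82. Among neighbours in this order, the library ranges of IDP2 and ICL1 overlapped, as did those of FBP1 and SFC1, SFC1 and MLS1, and MLS1 and PCK1. In WT sucrose PCK1 reached 19.9 CPM per kb (percentile 24.5) above the means of FBP1 (10.3), SFC1 (8.20) and MLS1 (11.2), while MDH2 moved to 49.7 (percentile 47.7) and CIT2 to 524 (percentile 93.0). The rank of PCK1 rested on WT sucrose library 1: without it PCK1 had a mean of 10.3 CPM per kb against 11.4 for FBP1. The library ranges of PCK1, from 9.72 to 39.3, overlapped those of FBP1, SFC1 and MLS1. The libraries are bulk samples, in which more cells expressing a gene and more RNA per cell cannot be told apart.

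**Figure D2:**
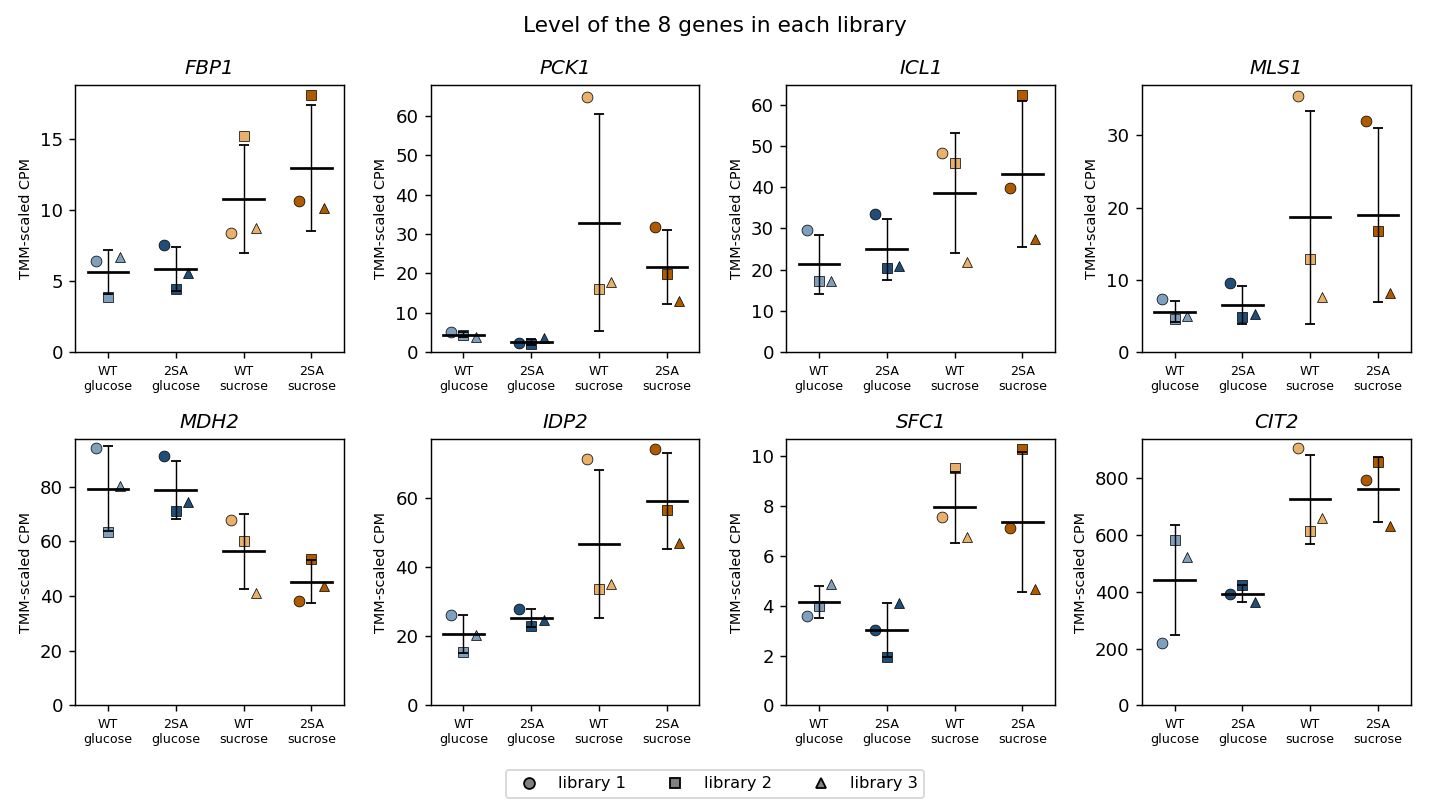
TMM-scaled CPM of each gene in each of the 12 libraries, by group, with circles, squares and triangles for libraries 1, 2 and 3. Bars show the mean and SD of 3 libraries. PCK1 lies between 1.94 and 5.04 CPM in glucose and between 13.0 and 64.8 CPM in sucrose, and MDH2 is the gene whose means are lower in sucrose.

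The comparison of sucrose with glucose asks how these genes, many of them known as glucose-repressed, changed in a medium that still yields glucose. PCK1 rose in both genotypes, 7.54-fold in WT and 8.33-fold in 2SA, and was the only one of the 8 genes called. The other genes but MDH2 had higher levels in sucrose, between 1.65-fold (CIT2) and 3.34-fold (MLS1) in WT, without passing the test, and MDH2 had a lower level. Called means a fold change over 1.5 with an adjusted p under 0.05 in edgeR's quasi-likelihood test, Benjamini-Hochberg corrected over all 6085 genes. In WT 1 of 8 was called higher, and 2.91% of all tested genes were. In 2SA 1 of 8 was called higher, and 1.61% of all tested genes were. No member was called lower, while 0.526% of all genes in WT and 0.279% in 2SA were. The median log2 fold change of the 8 was 0.93 in WT and 1.19 in 2SA, against 0.04 and 0.02 over all genes. At an unadjusted p under 0.05, the counts were 8 of 8 in WT and 7 of 8 in 2SA, against 24% and 18.1% of all genes.

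Of the gluconeogenic enzymes, PCK1 turns oxaloacetate into phosphoenolpyruvate, the first committed step. It had 5.04, 4.28 and 3.75 CPM in WT glucose (libraries 1, 2 and 3) and 64.8, 16.0 and 17.9 CPM in WT sucrose. In 2SA it had 2.37, 1.94 and 3.46 CPM in glucose and 31.8, 19.9 and 13.0 CPM in sucrose. Every sucrose library was above every glucose library, and the first sucrose library was the highest in both genotypes. The log2 fold change was 2.91 ± 0.54 (SE) in WT and 3.06 ± 0.56 in 2SA (edgeR adjusted p = 0.0213 and 0.0301, n = 3 libraries per group). Without WT sucrose library 1 the WT value was 1.96 and remained past the threshold (adjusted p = 0.0347).

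The PCK1 call was lost when single libraries were left out. In WT the edgeR adjusted p became 0.0591 without WT glucose library 1, 0.0959 without library 2 and 0.0912 without library 3. In 2SA it became 0.118, 0.152 and 0.0746 without 2SA glucose libraries 1, 2 and 3, and 0.0978 and 0.0680 without 2SA sucrose libraries 1 and 2. It was 0.0527 and 0.0505 in 2SA without WT glucose libraries 2 and 3, which enter that contrast through the scaling, the filter and the shared spread alone. Across all 12 omissions the log2 fold change stayed between 1.96 and 3.23 in WT and between 2.67 and 3.32 in 2SA. Without the 4 libraries numbered 2 it was 3.23 in WT and 2.94 in 2SA (adjusted p = 0.153 and 0.226). Without the 4 numbered 1, a choice made after the values were seen, it was 2.08 and 2.61 (adjusted p = 0.175 and 0.148).

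FBP1 removes a phosphate from fructose-1,6-bisphosphate, the step opposite phosphofructokinase. It had 6.41, 3.84 and 6.65 CPM in WT glucose and 8.36, 15.2 and 8.75 CPM in WT sucrose. The 2SA values were 7.50, 4.45 and 5.55 CPM in glucose and 10.6, 18.1 and 10.1 CPM in sucrose. The carbon sources did not overlap in either genotype, and library 2 was the lowest in both glucose groups and the highest in both sucrose groups. FBP1 gave a log2 fold change of 0.93 ± 0.34 in WT and 1.15 ± 0.34 in 2SA, which did not pass (edgeR adjusted p = 0.131 and 0.107).

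In the glyoxylate cycle, ICL1 splits isocitrate into succinate and glyoxylate. It had 29.6, 17.1 and 17.2 CPM in WT glucose and 48.2, 45.8 and 21.8 CPM in WT sucrose. In 2SA, ICL1 had 33.5, 20.3 and 20.9 CPM in glucose and 39.9, 62.4 and 27.5 CPM in sucrose. The carbon sources overlapped in both genotypes, since the first glucose library exceeded the third sucrose library. ICL1 gave a log2 fold change of 0.86 ± 0.38 in WT and 0.80 ± 0.38 in 2SA (edgeR adjusted p = 0.201 and 0.298), not past the threshold.

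MLS1, malate synthase, joins glyoxylate with acetyl-CoA. Its values were 7.27, 4.52 and 4.95 CPM in WT glucose and 35.4, 12.9 and 7.66 CPM in WT sucrose. In 2SA they were 9.59, 4.82 and 5.24 CPM in glucose and 32.0, 16.8 and 8.17 CPM in sucrose. The groups did not overlap in WT and did in 2SA, and in both genotypes library 1 was the highest and library 3 the lowest in sucrose. MLS1 had the widest spread of the 8 genes in WT sucrose, with 4.62-fold between the highest and the lowest library. Its log2 fold change of 1.74 ± 0.60 in WT and 1.54 ± 0.59 in 2SA did not pass (edgeR adjusted p = 0.116 and 0.207). Without WT sucrose library 1 the WT value was 0.88, and over all 12 omissions it lay between 0.88 and 2.09 in WT and between 0.94 and 1.92 in 2SA, lowest in 2SA without 2SA sucrose library 1.

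MDH2 oxidises malate to the oxaloacetate that PCK1 uses. It had 94.3, 63.3 and 80.1 CPM in WT glucose and 67.7, 60.0 and 41.2 CPM in WT sucrose. In 2SA it had 91.1, 71.1 and 74.3 CPM in glucose and 38.3, 53.7 and 43.8 CPM in sucrose. All 3 sucrose libraries of 2SA lay below all 3 glucose libraries, while in WT the groups overlapped. The log2 fold change was −0.49 ± 0.21 in WT and −0.80 ± 0.22 in 2SA (edgeR adjusted p = 0.195 and 0.0874), which did not pass. It was negative in both genotypes under every scaling tried.

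CIT2 supplies citrate to the cycle from acetyl-CoA and oxaloacetate in the peroxisome. It had 219.5, 581 and 522 CPM in WT glucose and 904, 612 and 660.2 CPM in WT sucrose. The 2SA libraries had 392, 424 and 364 CPM in glucose and 791, 855 and 632 CPM in sucrose. The carbon sources did not overlap in either genotype, although WT glucose library 1 stood well below the other two. CIT2 gave a log2 fold change of 0.72 ± 0.31 in WT and 0.95 ± 0.32 in 2SA (edgeR adjusted p = 0.196 and 0.144), not past the threshold.

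IDP2, the NADPH-forming enzyme, had 26.3, 15.5 and 20.4 CPM in WT glucose and 71.4, 33.6 and 35.1 CPM in WT sucrose. The 2SA libraries had 28.0, 22.9 and 24.9 CPM in glucose and 74.4, 56.5 and 47.1 CPM in sucrose. No sucrose library overlapped a glucose library of its genotype. With a log2 fold change of 1.17 ± 0.30 in WT and 1.23 ± 0.30 in 2SA, IDP2 was the member nearest the threshold after PCK1 (edgeR adjusted p = 0.0569 and 0.0662). Among single omissions it passed in WT without WT sucrose library 3 (adjusted p = 0.0358) and in 2SA without WT sucrose library 1 or 2 (adjusted p = 0.0297 and 0.0441).

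SFC1 is the mitochondrial carrier that exchanges succinate for fumarate and so links the glyoxylate cycle to the citric acid cycle. It had 3.59, 3.99 and 4.86 CPM in WT glucose and 7.55, 9.53 and 6.75 CPM in WT sucrose. In 2SA it had 3.04, 1.94 and 4.10 CPM in glucose and 7.10, 10.3 and 4.67 CPM in sucrose. The carbon sources did not overlap in either genotype. The log2 fold change was 0.94 ± 0.33 in WT and 1.29 ± 0.33 in 2SA (edgeR adjusted p = 0.122 and 0.0769), and among single omissions SFC1 passed in 2SA without 2SA sucrose library 3 (adjusted p = 0.0489).

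By the ranges of the libraries alone, 6 of the 8 genes lay wholly higher in sucrose in WT (FBP1, PCK1, MLS1, IDP2, SFC1 and CIT2), as did 14.2% of all tested genes. In 2SA 5 of the 8 did (FBP1, PCK1, IDP2, SFC1 and CIT2), against 14.2% of all genes, and MDH2 lay wholly lower, as did 13% of all genes. In WT no member lay wholly lower, as 12.1% of all genes did. DESeq2 called more members on the same counts, PCK1, MLS1 and IDP2 higher in WT, and FBP1, PCK1, IDP2 and SFC1 higher with MDH2 lower in 2SA. It also called more of all genes, 5.73% higher and 3.32% lower in WT, and 3.46% higher and 2.03% lower in 2SA. The fits on the 2 groups of a comparison alone called none (PCK1 adjusted p = 0.119 in WT and 0.0512 in 2SA), against 0.149% of all genes higher and 0.0166% lower in WT, and 0.0666% higher and 0.0167% lower in 2SA.

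**Figure D3:**
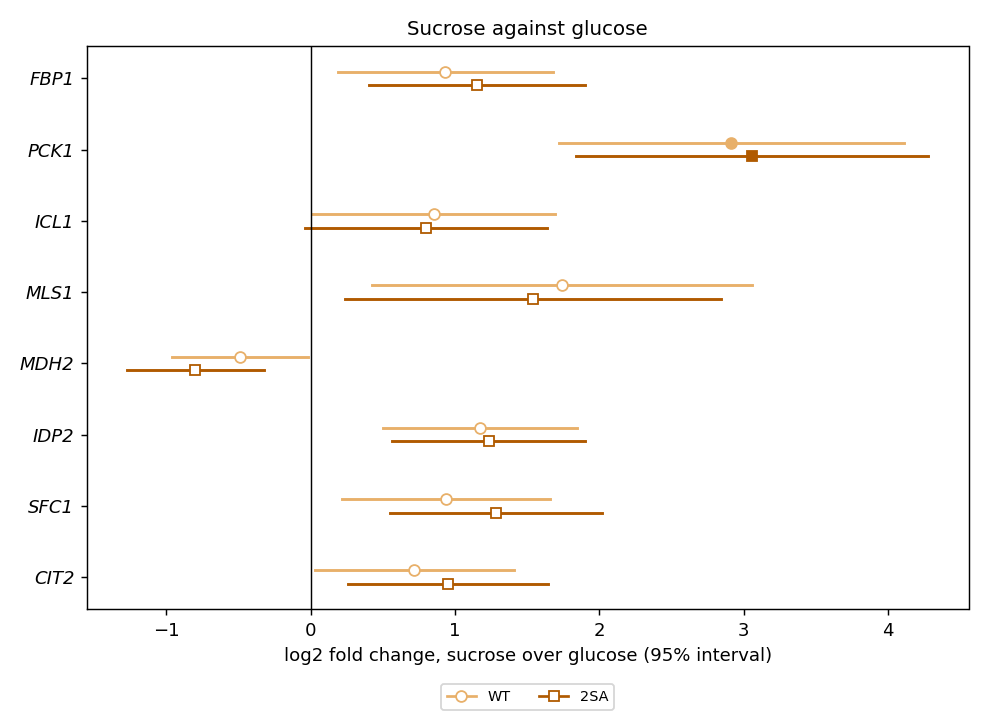
Log2 fold change of each gene in sucrose over glucose, with 95% intervals, for WT (circles) and 2SA (squares). Filled symbols mark called genes, which are PCK1 in both genotypes. The genotypes' intervals overlap for all 8 genes, and MDH2 is the gene whose intervals lie below 0.

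Within sucrose, the libraries of a group differed among themselves, and 5 of the 8 genes were highest in the same library number in both genotypes. Over all tested genes, the deviations of same-numbered WT and 2SA sucrose libraries correlated as well (r = 0.603, 0.847 and 0.799). The share of all genes highest in the same number was not computed, so the count is not shown to be particular to the 8. PCK1, MLS1 and IDP2 were highest in library 1 in both WT and 2SA, by 1.29, 1.22 and 0.70 log2 units above the group mean in WT and 0.65, 0.96 and 0.35 in 2SA. FBP1 and SFC1 were highest in library 2, by 0.55 and 0.27 in WT and 0.53 and 0.55 in 2SA. The other 3, ICL1, MDH2 and CIT2, were highest in library 1 in WT and in library 2 in 2SA. Library 3 was highest for none of the 8 in either sucrose group, and the median deviation of the 8 there was −0.37 in WT and −0.44 in 2SA. Without the libraries numbered 2, the log2 fold change in sucrose was 0.39 (edgeR adjusted p = 0.489) in WT and 0.68 (edgeR adjusted p = 0.352) in 2SA for FBP1, and 0.76 (edgeR adjusted p = 0.345) and 0.73 (edgeR adjusted p = 0.464) for SFC1. Library 2 is the one with few ribosomal protein counts and many stress counts, and the part of that difference in the values of FBP1 and SFC1 was not tested. The largest spread between libraries of a sucrose group was that of MLS1 in both genotypes, 4.62-fold and 3.91-fold, followed by PCK1 with 4.04-fold and 2.44-fold. Glucose libraries shared such a pattern, and there too the deviations correlated over all tested genes (r = 0.654, 0.610 and 0.545). ICL1, MLS1, MDH2 and IDP2 were highest in library 1 of both genotypes, CIT2 in library 2 and SFC1 in library 3, but FBP1 and PCK1 shared none. Stress markers took 0.484% of counts in WT glucose library 1 and 0.464% in that of 2SA, against 0.174% to 0.208% in the other glucose libraries.

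**Figure D4:**
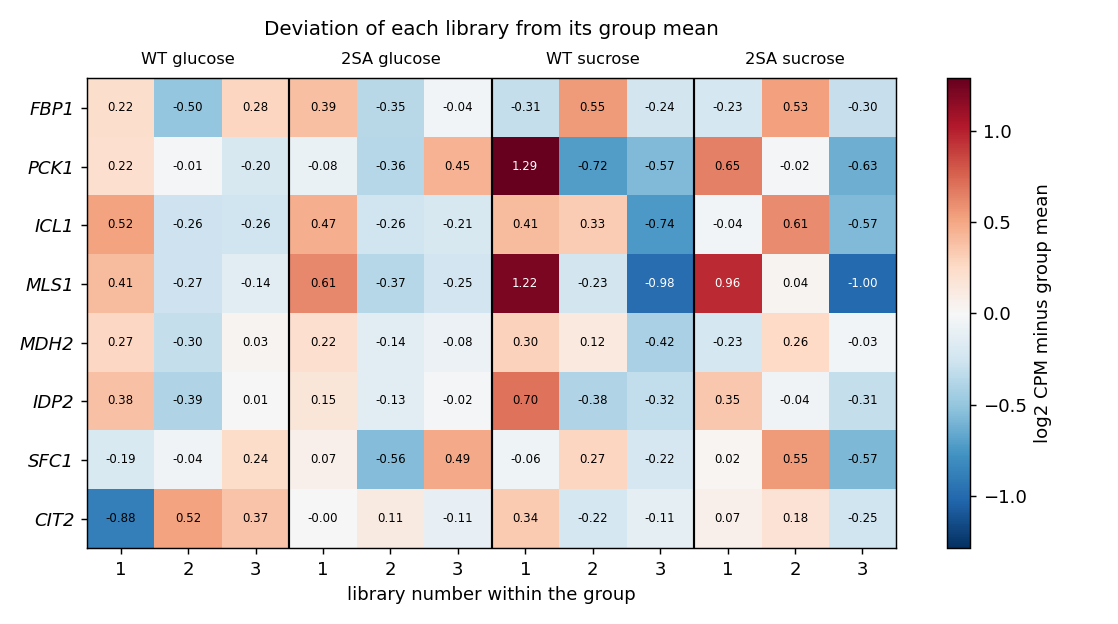
Deviation of each library's log2 CPM from the mean of its group, for the 8 genes (rows) and the 12 libraries (columns), with red above and blue below the mean. PCK1 and MLS1 are highest in the first sucrose library of both genotypes, and CIT2 in WT glucose library 1 lies 0.88 below its mean.

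The comparison of 2SA with WT asks whether the Rpd3 mutation moved these genes within a carbon source. No member was called in glucose or in sucrose. In glucose edgeR called 0 of the 8, against 0.0329% of all genes higher and 0.0493% lower. In sucrose edgeR called 0 of the 8, against 0.0164% of all genes higher and 0.0493% lower. An unadjusted p under 0.05 (edgeR) was had by 0 of the 8 in each, against 2.81% of all genes in glucose and 3.98% in sucrose. Both shares are below what chance alone would give, so these counts do not show that the members were unmoved. DESeq2 also called 0 of the 8 in both. Of all genes it called 5 of 6657 higher and 25 lower in glucose, and 10 of 6263 higher and 36 lower in sucrose. The median log2 fold change of the 8 was 0.02 in glucose and 0.05 in sucrose, against 0.01 and −0.0032 over all genes. This comparison in glucose shares its WT libraries with that of sucrose in WT, and its 2SA libraries with that of sucrose in 2SA.

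Same-numbered WT and 2SA libraries of a carbon source were taken as pairs, inferred from correlations in these same counts and not from the labels. Values are therefore also given with a block for the pair. Agreement in 3 of 3 pairs is given below as a description, since its share over all genes was not computed. With that block 0 of the 8 were called in either carbon source, against 0.115% of all genes higher and 0.362% lower in glucose, and 0.23% higher and 1.61% lower in sucrose. In glucose PCK1 was lower in 2SA in 3 of 3 pairs, with log2 ratios of −1.06, −1.11 and −0.11, and no 2SA library reached the lowest WT library. PCK1 was the only member whose groups did not overlap in glucose, where 3.75% of all genes lay wholly lower in 2SA and 3.6% wholly higher. The log2 fold change of PCK1 was −0.75 ± 0.54 without the block (95% interval −1.94 to 0.44) and −0.76 ± 0.31 with it (−1.46 to −0.07). Its unadjusted p with the block was 0.0353 and the adjusted p 0.421 (edgeR), where 10.5% of all genes had an unadjusted p under 0.05. In sucrose PCK1 was lower in 2SA in 2 of 3 pairs, and its log2 fold change was −0.61 ± 0.50 without the block and −0.40 ± 0.25 with it.

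IDP2 went the other way. It was higher in 2SA in 3 of 3 pairs in glucose, with log2 ratios of 0.09, 0.57 and 0.28, and in 3 of 3 in sucrose, with 0.06, 0.75 and 0.42. The WT and 2SA libraries overlapped in both carbon sources. With the block its log2 fold change was 0.31 ± 0.14 in glucose and 0.41 ± 0.14 in sucrose (95% interval 0.10 to 0.72), and neither passed (edgeR adjusted p = 0.489 and 0.141, unadjusted p = 0.0584 and 0.0157). In sucrose 21.2% of all genes had an unadjusted p under 0.05 with the block.

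The remaining members gave intervals on both sides of 0 in each carbon source. In glucose SFC1 was lower in 2SA in 3 of 3 pairs, with log2 ratios of −0.23, −1.01 and −0.24. ICL1 was higher in 3 of 3 pairs (0.18, 0.24 and 0.28), as was MLS1 (0.40, 0.089 and 0.079), and in sucrose FBP1 was (0.35, 0.25 and 0.21). The WT and 2SA libraries overlapped in each of these cases. Without the block, SFC1 in 2SA was at −0.46 ± 0.33 in glucose and −0.11 ± 0.32 in sucrose. FBP1 was at 0.05 ± 0.34 and 0.27 ± 0.33, ICL1 at 0.22 ± 0.38 and 0.17 ± 0.38, and MLS1 at 0.23 ± 0.59 and 0.03 ± 0.57. MDH2 was at −0.01 ± 0.21 and −0.31 ± 0.21, and CIT2 at −0.17 ± 0.31 and 0.07 ± 0.31. With the block, the 95% intervals narrowed to −0.28 to 0.40 in glucose and −0.04 to 0.59 in sucrose for FBP1, and to −0.08 to 0.55 and −0.13 to 0.47 for ICL1. For SFC1 they were −0.99 to 0.0027 and −0.60 to 0.29, and for MLS1 −0.14 to 0.54 and −0.21 to 0.41. Those of MDH2 were −0.34 to 0.34 and −0.65 to 0.05. For CIT2 they stayed wide, −0.62 to 0.51 and −0.48 to 0.63. In sucrose the WT and 2SA ranges overlapped for all 8 genes, while 2.88% of all genes lay wholly higher and 3.39% wholly lower in 2SA.

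**Figure D5:**
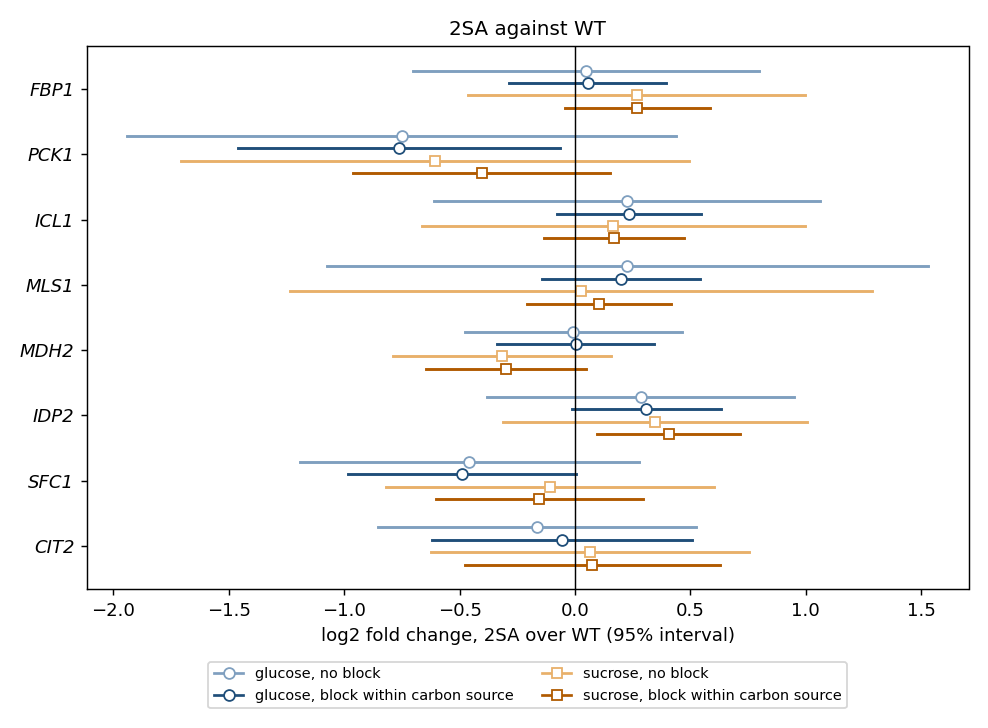
Log2 fold change of each gene in 2SA over WT with 95% intervals, in glucose (circles) and sucrose (squares), without a block (pale) and with a block for the library pair (dark). With the block, the intervals that leave out 0 are those of PCK1 in glucose and of IDP2 in sucrose, and no gene was called.

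The sucrose response itself did not differ detectably between the genotypes. The interaction is the log2 sucrose response in 2SA minus that in WT. By edgeR it was called for 0 of the 8 and for 0% of all genes. By DESeq2 it was called for 0 of the 8 and for 0 of 6789 genes. No member and 10 of 6085 genes (0.164%) had an unadjusted p under 0.05 (edgeR). That is below the share that chance alone would give, so this count does not show that the genotypes respond alike. With the block for the pair, no member and 302 genes (4.96%) did, and 0 genes were called. For PCK1 it was 0.14 ± 0.73, with a 95% interval of −1.46 to 1.75. The interaction was −0.31 ± 0.30 for MDH2 and 0.35 ± 0.46 for SFC1. With the block for the pair, the 8 intervals were narrower, such as −0.25 to 0.68 for FBP1, −0.50 to 0.37 for ICL1 and −0.56 to 0.37 for MLS1, and none left out 0.

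Genes around the 8 were taken from lists chosen with earlier results of these data known, and they are described by counts. Their values without the libraries numbered 2 and without those numbered 1 were added after the values were seen. Without the former no list gene was called in sucrose against glucose, and without the latter ADH2 in 2SA alone was (3.07, edgeR adjusted p = 0.0329). The genes called from these lists kept their sign in both. Each count can be read against the 2.91% of all genes higher in WT and 1.61% in 2SA given above. Of 8 isozymes in other compartments or of related function, 3 rose in sucrose in WT and 1 did in 2SA, with a median log2 fold change of 0.93 and 0.78 (0 to 4 in WT and 0 to 2 in 2SA when 1 library was left out). CIT3, a mitochondrial citrate and methylcitrate synthase, rose in both genotypes, by 1.80 ± 0.39 in WT and 1.88 ± 0.40 in 2SA (edgeR adjusted p = 0.0319 and 0.0390). The peroxisomal MDH3 and IDP3 rose in WT by 0.88 ± 0.18 and 0.95 ± 0.21 (adjusted p = 0.0271 and 0.0352). In 2SA MDH3 and IDP3 were both at 0.78 and did not pass (adjusted p = 0.0567 and 0.0890). MDH3 thus differed in sign from its cytosolic counterpart MDH2, whose values fell short of the threshold. Mitochondrial MDH1, CIT1 and IDP1 were at 0.91, 1.24 and 0.17 in WT, mitochondrial ICL2 at 1.64, and DAL7, a second malate synthase, at 0.46, and none of these 5 passed in either genotype.

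MLS1 and DAL7 share 75.9% identity over 1571 aligned bases, with a longest identical run of 19 bases. CIT2 and CIT1 share 74.7% with a longest run of 21, and IDP2 shares 70.5% with IDP1 and with IDP3 with runs of 23 and 20. MDH2 and MDH1 align over 59 bases alone. None of the 8 had another gene with at least 80% identity over 100 bases.

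The regulators of the 8 genes did not pass in sucrose against glucose in either genotype (0 of 7 by edgeR, 2 higher in WT and 1 in 2SA by DESeq2). SIP4 was at 1.67 ± 0.45 in WT and 1.80 ± 0.45 in 2SA (edgeR adjusted p = 0.0651 and 0.0683), from 3.20 to 10.2 mean CPM in WT. ADR1, the activator of ADH2 and peroxisomal genes, was at 2.49 ± 0.77 and 1.45 ± 0.74, and WT sucrose held a single library at 382 CPM beside 2 at 79.4 and 80.1. CAT8 was at 0.65 ± 0.62 and 0.43 ± 0.62, RDS2 at 0.36 and 0.31, ERT1 at 0.25 and 0.31, and the repressor MIG1 at 0.27 and −0.08. HAP4, the activator of respiratory genes, was at −0.22 and −0.94.

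In 2SA against WT in sucrose, CAT8 and MIG1 were called lower with the block for the library pair and not called without it, at folds of about the same size. CAT8 had 32.4, 81.4 and 18.9 CPM in WT sucrose and 18.7, 55.3 and 13.6 CPM in 2SA sucrose, lower in 3 of 3 pairs. MIG1 had 203, 369 and 153 CPM in WT and 128, 245 and 99.5 CPM in 2SA, again lower in 3 of 3 pairs. Both were highest in library 2 of each genotype, and the unpaired ranges overlapped. With the block the log2 fold change was −0.61 ± 0.09 for CAT8 and −0.63 ± 0.07 for MIG1 (edgeR adjusted p = 0.0147 and 0.00441), and without it the values were −0.60 ± 0.62 and −0.62 ± 0.35 (adjusted p = 0.998 for both). With the block and without the libraries numbered 2, they were −0.63 and −0.64 and did not pass (adjusted p = 0.188 and 0.0968). With the block and without those numbered 1, MIG1 stayed called (−0.61, adjusted p = 0.0166). CAT8 was then at −0.52, short of the fold threshold (adjusted p = 0.0459). None of the 8 genes was called in the fit with the block on all 12 libraries. Of 12 stress markers 3 were called lower in the same fit, TMA10 (−1.11), GPH1 (−1.02) and HSP26 (−0.81), and 8 of 12 had an unadjusted p under 0.05, with a median of −0.52. Of the 7 a-cell genes BAR1 was called lower (−0.88), with a median of −0.55, and 2 of the 10 genes of opposing glycolytic steps were, the pyruvate kinase gene PYK2 (−0.93) and the hexokinase gene HXK1 (−0.71). None of these 6 passed without the block (adjusted p = 0.785 for BAR1 and 0.998 for the others) or, with it, without the libraries numbered 2 (0.0741 to 0.291). With the block and without those numbered 1, GPH1, TMA10, HSP26 and PYK2 stayed called (adjusted p = 0.0067, 0.0104, 0.0128 and 0.0223). HXK1 and BAR1 did not (0.0647 and 0.0833). The part of the stress and mating-type markers in the CAT8 and MIG1 values was not tested.

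Genes listed as other targets of Cat8 rose in sucrose. In sucrose against glucose, 7 of 9 rose in WT and 6 of 9 in 2SA, with medians of 2.66 and 2.41, where 2.91% and 1.61% of all genes were called higher. Leaving out 1 library gave 1 to 7 of 9 in each genotype, with 1 in WT without WT glucose library 2 or 3, and 1 in 2SA without 2SA glucose library 1, 2 or 3 or 2SA sucrose library 1. Without the libraries numbered 2, 0 of 9 passed in each, at medians of 2.11 and 2.05, and without those numbered 1, 0 and 1 passed, at 2.49 and 2.66. JEN1, the lactate and pyruvate permease, went from 17.0 ± 6.78 CPM (SD, n = 3) in WT glucose to 452 ± 257 in WT sucrose, a log2 fold change of 4.73 ± 0.71 (edgeR adjusted p = 0.0102), and 4.41 without the libraries numbered 2 (adjusted p = 0.132). ADY2, an acetate transporter, rose by 4.51 ± 0.83, and ADH2, the alcohol dehydrogenase that consumes ethanol, by 3.93 ± 0.69 (adjusted p = 0.0213 and 0.0182). ACS1, acetyl-CoA synthetase, rose by 2.03 ± 0.38, and the carnitine shuttle genes CRC1, CAT2 and YAT2 by 3.30, 2.66 and 1.79. In 2SA the same genes but YAT2 (1.40, adjusted p = 0.0874) passed, with 4.84 for JEN1, 4.67 for ADY2, 3.78 for ADH2, 3.29 for CRC1, 2.41 for CAT2 and 2.29 for ACS1. YAT1 did not pass in either (1.29 and 1.64). Whether these genes rose more than the 8 was not tested.

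Feeding and opposing steps changed in part. Of 10 genes that supply or share steps with the pathway, the same 3 rose in both genotypes. PYC1, a pyruvate carboxylase that makes oxaloacetate, rose by 1.51 ± 0.23 in WT and 1.61 ± 0.23 in 2SA (edgeR adjusted p = 0.0102 and 0.0157). The mitochondrial carriers ODC1 and DIC1 rose by 1.91 and 1.24 in WT and by 1.59 and 1.14 in 2SA. Leaving out 1 library gave 1 to 3 of the 10 in WT and 0 to 3 in 2SA. Of 10 genes of opposing glycolytic steps, CDC19, the main pyruvate kinase, alone passed in 2SA, where it fell (−1.72 ± 0.37, edgeR adjusted p = 0.0411). In WT none passed (CDC19 −1.26 ± 0.36, edgeR adjusted p = 0.0770). The list as a whole did not fall: 7 of the 10 were positive in WT and 5 in 2SA, with median log2 fold changes of 0.38 and 0.03. DESeq2 called 2 of the 10 higher and 1 lower in WT, and 0 and 1 in 2SA. Without the libraries numbered 2, PYC1 was at 1.63 in WT and 1.50 in 2SA, and CDC19 at −1.44 in 2SA (adjusted p = 0.110, 0.172 and 0.206). Of 11 genes of the retrograde pathway that drives CIT2, PYC1 alone passed in each genotype, and DLD3, another classical target, was at 0.33 in WT and 0.81 in 2SA. The GID ubiquitin ligase marks Fbp1, Pck1, Icl1 and Mdh2 for degradation when glucose returns. Of its 8 genes, VID24, which encodes the substrate receptor Gid4, rose by 1.47 ± 0.31 in WT and 1.40 ± 0.31 in 2SA (adjusted p = 0.0267 and 0.0462), and the other 7 did not pass. The VID24 call was lost in WT without any 1 of the WT glucose libraries or WT sucrose library 2, and in 2SA under 10 of the 12 omissions.

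In sucrose against glucose, 1 of 12 stress markers, GRE1, passed in WT and none did in 2SA, with median log2 fold changes of 1.30 and 0.83. The 7 a-cell markers had medians of −0.36 and −0.87, each negative in both genotypes, and none passed. DESeq2 called 4 stress markers higher in WT and 3 in 2SA, and 3 a-cell markers lower in 2SA. Their part in the results was not tested.

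The genes most like each member over the 12 libraries, among genes with at least 5 mean CPM, were ranked by Pearson r of log2 CPM. The 12 libraries fall into 4 groups, which r takes in along with the differences between libraries of a group, so it is given as a description. PCK1 was most like COQ21 (r = 0.977), DOT5 and SPS19, and FBP1 was most like OM14 (0.979), ATP16 and UGA2. ICL1 was most like MTC2 (0.969), GOR1 and MIC27, and MLS1 was most like ICL2 (0.978), ECM13 and YJR142W. IDP2 was most like APE2 (0.951), FUM1 and MGR2, and SFC1 like DMC1 (0.946), COI1 and MRX10. MDH2 was most like DPP1 (0.941), RAS2 and MGA1, and CIT2 like ECM2 (0.896), SPO24 and BAT2. No gene was on the list of more than 1 member.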

How the data were processed

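Acid phenol was used to extract total RNA in mid-log phase and a KAPA kit to make libraries, per the labels' protocols. Strand marking by the kit and any RNA selection are not given in the sources used. The authors deposited 1 table with raw counts of reads for each gene and no normalization. Reads were aligned with Bowtie 0.12.2 to sacCer3, per the submitters' processing notes. The counting program, its strand setting and its treatment of multiply aligned reads are likewise not given in the sources used here. Titles of the samples give groups and replicate numbers, and replicates are called biological in the design text. Of the features with a locus tag in the R64 annotation, 99.9% of 6035 had the same start and end.

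Tests on counts used edgeR 4.0.16 in R 4.3.3 (quasi-likelihood F-test), TMM scaling by the trimmed mean of M values (factors 0.922 to 1.11), 1 mean per group and all 12 libraries in 1 fit. The default filter (minimum count 10) kept 6085 of 7127 features. The common dispersion was 0.0719, with 8 residual degrees of freedom. The thresholds, an adjusted p of 0.05 and a fold of 1.5, follow the design text. Standard errors are the log2 fold change divided by the root of F. The 95% intervals use the t distribution with the fit's degrees of freedom. The test was tried on simulated counts first. Replicates of a group were distinct libraries (lowest chi-square per degree of freedom 89.9). CPM are scaled by TMM, and lists are described by counts and medians, without a set test.

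The members, the lists and the tests were chosen with earlier results of these data known. The text names the 8 members, the isozymes, the regulators, the genes of the other pathway lists called without a block or with the pair block and the 3 genes most like each member (log2 CPM with a prior count of 2). YAT1, DLD3 and marker genes of mating type, strain and stress were named beside them, YAT1, DLD3 and the called markers after their values were seen.

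The deviations of same-numbered WT and 2SA libraries from their group means correlated over genes, in glucose with r = 0.654, 0.610 and 0.545, in sucrose with r = 0.603, 0.847 and 0.799. They were taken as pairs, which the labels do not explain. The fit with a block for each pair had a common dispersion of 0.0134 on 4 residual degrees of freedom. No call of a member changed with it in 2SA against WT. Alternatives were RLE size factors, library totals, no filter, no minimum fold, DESeq2 1.42.0, the groups of a comparison alone, the replicate blocks, each library left out in turn, and the libraries numbered 2 left out. Leaving out those numbered 1, and every alternative for the lists around the 8 genes, were added after the values were seen. Upstream windows were read from the RefSeq R64 genome and near copies found with BLAST+ 2.17.0. Shares, CPM and their lowest counts carry counting error as well as the spread between libraries.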

Additional observations from a re-analysis of the deposited data

How the results depend on the processing

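Results were recomputed for the 8 genes under each alternative. Sucrose against glucose kept its direction for all 8 genes in both genotypes under every alternative run, and the number called moved. From 1 in each genotype, it became 2 and 2 with library totals (which shift the median of all genes to 0.18 and 0.15), 3 in WT and 5 in 2SA with DESeq2, and 0 and 0 with the groups of the comparison alone. It was 0 and 0 without the libraries numbered 2 and without those numbered 1. RLE factors, no filter and no minimum fold left 1 and 1, and leaving out 1 library gave 0 to 2 in each. Same-numbered sucrose and glucose libraries were not taken as pairs. Their deviations correlated less than those of WT and 2SA (r = 0.359, −0.09 and 0.479 in WT, 0.25, −0.19 and 0.335 in 2SA). Whether a number stands for something shared across the carbon sources was not tested. The replicate block by number alone gave 3 and 3 (PCK1, MLS1 and IDP2). In WT all genes called went from 177 higher and 32 lower to 363 and 273 with that block, to 344 and 199 with DESeq2, and to 0 and 0 without the libraries numbered 2. In 2SA they went from 98 and 17 to 214 and 133, to 217 and 127, and to 0 and 0. With library totals all genes called were 306 higher and 30 lower in WT, and 185 and 14 in 2SA. Without the libraries numbered 1 they were 2 and 0 in WT, and 4 and 1 in 2SA.

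In 2SA against WT no member was called under any alternative, and several uncalled values changed sign. In glucose MDH2 was 0.024 with library totals, 0.0024 with the replicate block within carbon source and 0.020 without libraries numbered 1. FBP1 was −0.010 without libraries numbered 2, −0.021 with the block as well, and −0.071 without those numbered 1, and CIT2 was 0.016 and 0.15 in the first 2 of these. In sucrose without libraries numbered 2, ICL1 was −0.048, MLS1 −0.098 and CIT2 −0.13, and with the block as well MLS1 was −0.034 and CIT2 −0.12. In the interaction PCK1, SFC1 and CIT2 were −0.28, −0.025 and −0.15 without libraries numbered 2, and −0.15, −0.046 and −0.27 with the block as well. ICL1 and MLS1 were 0.15 and 0.20 without those numbered 1. The cause of these changes was not tested.

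Leaving out 1 library at a time gave, for 2SA against WT in glucose, −0.17 to 0.21 for FBP1, −0.048 to 0.54 for ICL1, −0.15 to 0.46 for MLS1, −0.14 to 0.14 for MDH2 and −0.49 to 0.085 for CIT2. In sucrose it gave −0.036 to 0.60 for FBP1, −0.997 to 0.35 for PCK1, −0.18 to 0.41 for ICL1, −0.58 to 0.89 for MLS1, −0.42 to 0.13 for SFC1 and −0.041 to 0.26 for CIT2. In the interaction it gave −0.076 to 0.56 for FBP1, −0.25 to 1.10 for PCK1, −0.40 to 0.21 for ICL1, −0.80 to 0.66 for MLS1, −0.15 to 0.50 for IDP2 and −0.018 to 0.55 for CIT2. With 3 libraries a group, differences smaller than the intervals given were not detectable.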
